A study of Mus musculus with 7 samples.

Results

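The genes described are 10 core members of the transforming growth factor beta (TGF-beta) pathway: the ligand gene Tgfb1, the receptor genes Tgfbr1, Tgfbr2 and Eng, the SMAD genes Smad2, Smad3, Smad4 and Smad7, and the co-repressor genes Ski and Skil. They were chosen by name as part of the signal that holds blood stem cells in quiescence, and all 10 were among the 16760 genes of the deposited table.

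RNA was sequenced from CD150-negative cells labelled as HSC (haematopoietic stem cells) of C57/B6 mice. The 4 wild-type (WT) libraries were compared with 3 libraries of genotype 5G2del, which lack a part of chromosome 5 in band 5G2, the mouse counterpart of a segment of human 7q22 that is lost in myeloid malignancies. The sources used here do not give age, treatment, the zygosity or ends of the deletion, sort markers other than CD150, or whether each library is a separate animal. The p-values therefore measure only the spread among these 7 libraries, which may in part be technical.

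TGF-beta is secreted in a latent complex and must be released before it binds its receptors. The bound type II receptor activates the type I receptor, which phosphorylates SMAD2 and SMAD3, and these enter the nucleus with the shared partner SMAD4. SMAD7 and the SKI family restrain the signal, and in the bone marrow TGF-beta is known for keeping stem cells out of division.

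Values are log2 CPM, the log2 of counts scaled to a library size that was not the plain total of counts. Every fold change is the difference of mean log2 CPM, 5G2del less WT, so that a positive value is a higher mean in 5G2del. Column names in the table give each library's group and no sample number, so libraries carry a letter within each group (A to C for 5G2del, A to D for WT). Expected counts over all genes came to 37930174 at the lowest and 52194274 at the highest library, and the 10 genes had between 622 and 5827 expected counts each in any library. Cux1 and Trim56 were read as genes of the deleted interval, whose ends are not given. Cux1 lay at 6.80 to 8.01 log2 CPM in 5G2del and 8.17 to 8.59 in WT, and Trim56 at 4.51 to 5.14 and 5.84 to 6.14, without overlap. Their log2 fold changes were -1.12 and -1.05, and neither passed an adjusted p of 0.05 (limma adjusted p = 0.989 and 0.874). A difference of this size can thus go uncalled here. The stem and progenitor markers Kit, Cd34 and Hlf were abundant in all 7 libraries (from 7.88 to 9.47 log2 CPM), and Slamf1, which encodes CD150, was low. Slamf1 lay at 0.40 to 0.65 log2 CPM in 5G2del and -2.22 to -0.26 in WT, without overlap (log2 fold change 1.66 ± 0.75 (SE), limma unadjusted p = 0.0504, adjusted p = 0.989). Of the 10 listed stem and progenitor markers, 1 had an unadjusted p under 0.05. It was Cd48, at 4.01 to 4.94 log2 CPM in 5G2del and 2.52 to 4.58 in WT (0.99 ± 0.42, limma unadjusted p = 0.0372, adjusted p = 0.989). Flt3, also listed, was at 7.51 to 8.21 and 7.54 to 8.50. In WT-B 1104 genes had 0 counts, more than in any other library (83 to 492). Summed erythroid markers (7 of 7 measured) were also highest in WT-B, at 224 CPM, against 37.6 (5G2del-C) to 96.6 CPM (5G2del-B) in the other libraries. Summed neutrophil and monocyte markers (10 of 10 measured) reached 1655 CPM in 5G2del-A and 554 CPM in WT-A, against 166 to 248 CPM in the other 5 libraries. Summed B lineage markers (6 of 8 measured) came to 568, 60.6 and 363 CPM in 5G2del and 33.5 to 136 CPM in WT, and 2 of the genes, Igkc and Jchain, had higher means in 5G2del at an unadjusted p under 0.05 in limma-trend. Summed T and NK markers (6 of 9 measured) came to 51.4 to 85.1 CPM in 5G2del and 19.5 to 53.8 CPM in WT, where at that limit Nkg7 was higher and Il2rb lower in 5G2del. Il2rb was near the floor, at -6.42 to -4.04 log2 CPM in 5G2del and -2.66 to -0.73 in WT. Igkc and Jchain also had WT values near the floor, down to -6.60 and -4.28 log2 CPM. The part of these cells' RNA in the results below was not tested.

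None of the 10 genes passed the test. At a Benjamini-Hochberg adjusted p under 0.05 over all genes, limma with a mean-variance trend, here limma-trend, called 0 of the 10, as it called 0% of the 16760 genes. The adjusted p of the 10 genes ran from 0.989 to 0.992 in limma-trend, 0 had an unadjusted p under 0.05 (3.91% of all genes did), and the authors' deposited table likewise called 0. Means were higher in 5G2del for 5 genes and lower for the other 5, with a median log2 fold change of -0.05 against 0.03 over all genes. Point estimates ran from -0.25 for Smad7 to 0.31 for Tgfb1, and the outer bounds of the 95% intervals were -0.86 and 0.75. The upper bound of 0.75, or 1.68 times the WT level, was that of Tgfb1, and the lowest upper bounds were 0.11 for Smad2 and 0.14 for Tgfbr2. In sorted bulk cells, fewer cells of a type and less RNA per cell cannot be told apart.

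**Figure D1:**
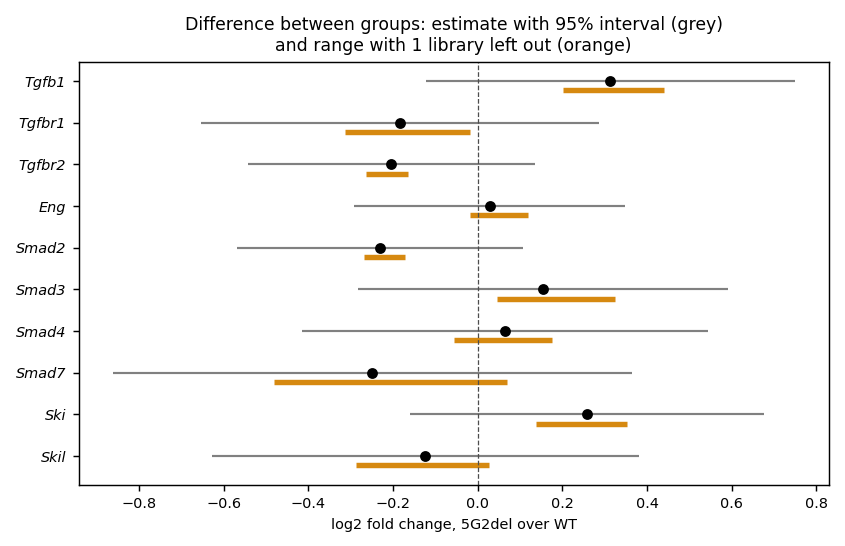
Log2 fold change of each gene, 5G2del over WT (x axis), with its 95% interval from limma-trend (grey line) and the range of estimates with 1 library left out (orange bar). All 10 intervals include 0, and the orange bars of Eng, Smad4, Smad7 and Skil cross it.

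The ligand gene Tgfb1 (ENSMUSG00000002603, mm10 chromosome 7, 25687002 to 25705077, plus strand) encodes the TGF-beta that blood and marrow cells chiefly make. In the order of the letters, the 5G2del libraries lay at 5.79, 5.42 and 5.60 log2 CPM and the WT libraries at 5.67, 4.96, 5.21 and 5.32, and values below follow the same order. All 5G2del libraries were above 3 of the 4 WT libraries, but WT-A lay within the 5G2del range, so the groups overlapped. The log2 fold change was 0.31 ± 0.20 (SE), the largest of the 10 in either direction, with a limma-trend unadjusted p of 0.143 and adjusted p of 0.989. With WT-A left out it was 0.44 (limma unadjusted p = 0.0409, adjusted p = 0.975), and with WT-B left out 0.20. In each group the library with the highest Tgfb1, 5G2del-A and WT-A, was also the one with the most neutrophil and monocyte, B lineage, T and NK and macrophage marker RNA (macrophage markers, 5 of 7 measured, summed to 14.6 and 12.1 CPM there). With both of these left out, a comparison chosen after the data were seen, the log2 fold change was 0.35.

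The receptors were examined next. Eng encodes endoglin, an accessory receptor found on stem cells and endothelium. Tgfbr2 encodes the type II receptor that binds the ligand, and Tgfbr1 the type I receptor kinase that acts on SMAD2 and SMAD3. The 250 bases upstream of the RefSeq start (GRCm38.p6) are shown for Eng and Tgfbr2, because these were the receptor genes with the smallest spread between libraries. Capitals mark CAGAC or its reverse complement, a short sequence that SMAD3 and SMAD4 are known to bind.
Eng, chr2:32646345-32646594, plus strand: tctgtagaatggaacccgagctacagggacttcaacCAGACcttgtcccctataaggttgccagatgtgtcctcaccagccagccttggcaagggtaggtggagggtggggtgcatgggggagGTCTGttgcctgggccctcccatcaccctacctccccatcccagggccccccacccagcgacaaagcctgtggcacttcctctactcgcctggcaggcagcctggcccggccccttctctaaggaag
Tgfbr2, chr9:116175364-116175613, minus strand: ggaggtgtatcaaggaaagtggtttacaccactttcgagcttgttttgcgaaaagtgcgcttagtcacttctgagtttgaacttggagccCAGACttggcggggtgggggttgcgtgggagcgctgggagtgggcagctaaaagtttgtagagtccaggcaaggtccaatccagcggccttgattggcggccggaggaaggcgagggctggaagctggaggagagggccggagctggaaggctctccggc
The Eng window held CAGAC once on each strand and the Tgfbr2 window once. Of 7 such windows for 6 of the 10 genes, 3 held it on either strand, the third being that of a downstream start of Tgfbr1, beside 42.2% of all 32851 windows of that length. A match of these letters is a description and not evidence of a bound site.

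Eng (ENSMUSG00000026814, chromosome 2, 32646595 to 32682669, plus strand) lay at 6.67, 6.95 and 6.94 log2 CPM in 5G2del and at 6.71, 6.97, 6.81 and 6.80 in WT. The 7 libraries spanned a narrow range in which the groups were interleaved, with 5G2del-A at its lower end and WT-B at its upper end. The log2 fold change was 0.03 ± 0.15 (SE), with a 95% interval from -0.29 to 0.35, and its sign turned when 5G2del-B, 5G2del-C or WT-A was left out. Its exons share 61 bases, or 1.51% of their length, with Fpgs on the opposite strand, and no other member shares exon bases with another annotated gene. Of the listed endothelial markers, Cdh5, Kdr and Vwf were at most -1.27, 1.29 and 1.87 log2 CPM. Tek ran from 0.94 to 3.80 log2 CPM, and Pecam1, Emcn and Tie1 lay between 3.66 and 5.67. The summed endothelial list (7 of 7 measured) ran from 73.1 to 110 CPM in 5G2del and 76.0 to 113 CPM in WT. The part of endothelial RNA in the Eng level was not tested.

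Tgfbr2 (ENSMUSG00000032440, chromosome 9, 116084293 to 116175360, minus strand) was at 5.44, 5.43 and 5.49 log2 CPM in the 5G2del libraries in order and at 5.67, 5.78, 5.48 and 5.71 in the WT libraries. The 5G2del libraries were nearly equal (SD 0.03, n = 3) and lay below every WT library but WT-C, which 5G2del-C slightly exceeded. Its log2 fold change was -0.20 ± 0.15 (SE) and stayed negative with each library left out (-0.26 to -0.16). Tgfbr1 (ENSMUSG00000007613, chromosome 4, 47353222 to 47414931, plus strand) was at 4.62, 4.22 and 4.81 log2 CPM in 5G2del and at 5.00, 4.82, 4.49 and 4.62 in WT. The groups overlapped, with 5G2del-B the lowest of the 7 and WT-A the highest. The difference was -0.18 ± 0.21 (SE) and came to -0.02 without 5G2del-B.

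**Figure D2:**
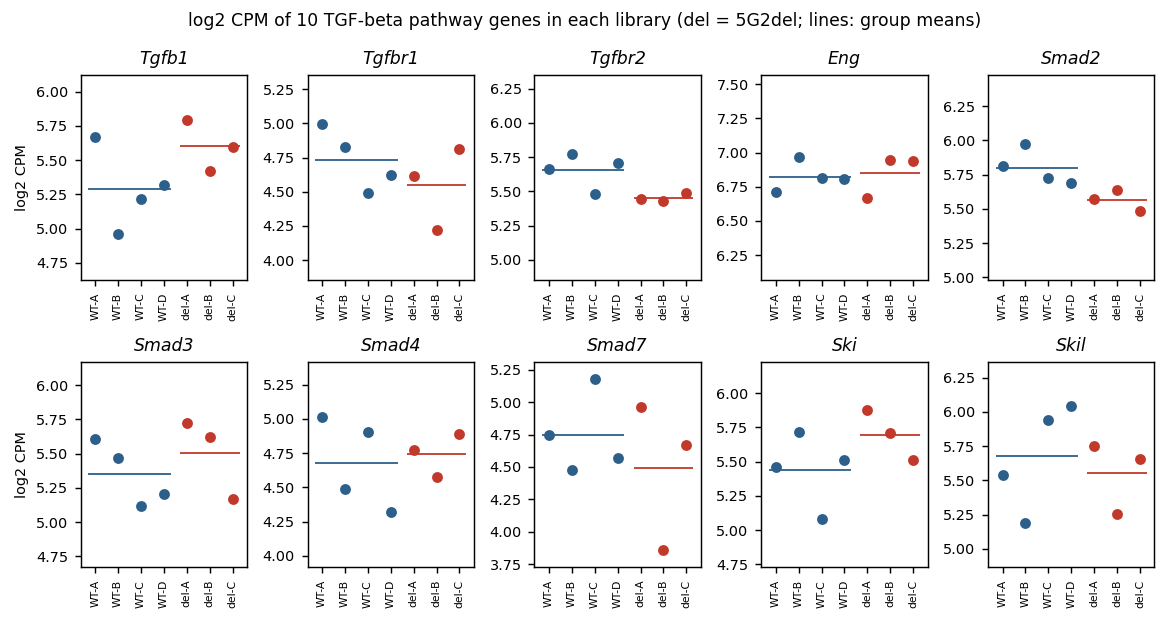
Log2 CPM (y axis, range differs between panels) of the 10 genes in each WT (blue) and 5G2del (red) library (x axis), with a line at each group mean. Smad2 is the gene whose groups do not overlap (5.49 to 5.64 in 5G2del, 5.69 to 5.98 in WT), and Smad7 has the widest spread, with 5G2del-B at 3.86.

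Among the SMAD genes, Smad2 was the one whose groups did not overlap. It encodes one of the receptor-activated SMADs and lies on chromosome 18 (ENSMUSG00000024563, 76241580 to 76310963, plus strand). Its level was 5.58, 5.64 and 5.49 log2 CPM in 5G2del and 5.81, 5.98, 5.73 and 5.69 in WT. The highest 5G2del library, 5G2del-B, was just below the lowest WT library, WT-D. The log2 fold change was -0.23 ± 0.15 (SE), a fold of 0.852, with a limma-trend unadjusted p of 0.160 and adjusted p of 0.989, and it ran from -0.27 to -0.17 with 1 library left out. One of 10 members without overlap, in the lower direction, stands beside 5.70% of all genes without overlap in either direction and 2.78% in the lower one, a count too small to set the members apart.

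Smad3 (ENSMUSG00000032402, chromosome 9, 63646767 to 63757994, minus strand) encodes the partner that binds DNA directly. It was at 5.73, 5.62 and 5.17 log2 CPM in the 5G2del libraries and at 5.61, 5.47, 5.12 and 5.21 in the WT libraries. Both groups held high and low libraries, and the difference was 0.16 ± 0.20 (SE), down to 0.04 without 5G2del-A and up to 0.32 without 5G2del-C. Smad4 (ENSMUSG00000024515, chromosome 18, 73639009 to 73703780, minus strand), the shared partner, was at 4.77, 4.58 and 4.89 log2 CPM in 5G2del and 5.02, 4.49, 4.90 and 4.32 in WT. The 5G2del values lay inside the WT range, and the difference of 0.06 ± 0.22 (SE) turned sign without 5G2del-C, WT-B or WT-D.

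Smad7, a feedback gene that TGF-beta itself induces and whose protein blocks the receptor, varied most (ENSMUSG00000025880, chromosome 18, 75367529 to 75395935, plus strand). It was at 4.96, 3.86 and 4.67 log2 CPM in 5G2del and at 4.75, 4.48, 5.18 and 4.57 in WT. A single library, 5G2del-B, lay apart below the rest, and the other 5G2del libraries were inside the WT range. The difference was -0.25 ± 0.28 (SE) with all libraries and 0.07 without 5G2del-B, so its direction rests on that library.

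Ski and Skil encode related co-repressors that bind SMAD complexes and silence their targets, and Skil is, like Smad7, known to be induced by TGF-beta. Ski (ENSMUSG00000029050, chromosome 4, 155154075 to 155222592, minus strand) was at 5.88, 5.71 and 5.51 log2 CPM in 5G2del and 5.46, 5.72, 5.08 and 5.51 in WT. All 5G2del libraries were at or above the WT libraries other than WT-B, and the difference was 0.26 ± 0.19 (SE), down to 0.14 without WT-C and 0.17 without 5G2del-A. Skil (ENSMUSG00000027660, chromosome 3, 31095058 to 31122577, plus strand) was at 5.75, 5.25 and 5.65 log2 CPM in 5G2del and 5.54, 5.19, 5.94 and 6.05 in WT. Both groups had a low library, 5G2del-B and WT-B, and the difference of -0.12 ± 0.23 (SE) turned to 0.03 without 5G2del-B.

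The spread between libraries of 1 group differed among the 10 genes. The residual SD was 0.10 log2 CPM for Tgfbr2, 0.11 for Smad2 and 0.13 for Eng, and 0.35 for Skil and 0.43 for Smad7, beside a median of 0.32 over the 10358 genes whose mean log2 CPM exceeded 2. Thus 8 of the 10 genes lay under that median, and Smad7 and Skil above it. The comparison was not matched for level. Mean log2 CPM of the 10 genes ran from 4.64 (Smad7) to 6.84 (Eng), well above the limit of 2, so the count does not set them apart.

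Levels of different genes were compared per kilobase of annotated exon, as log2 CPM less log2 exon length, over all 7 libraries. Eng stood highest at 4.82 ± 0.12 (SD, n = 7), 1.73 above Tgfb1 at 3.09 ± 0.29, a gap wider than either SD. Tgfb1, Ski (3.08), Smad3 (2.95) and Smad4 (2.82) followed each other by less than their SDs, as did Smad2 (2.57), Tgfbr2 (2.54), Smad7 (2.46) and Skil (2.35) after them. The step of 0.25 from Smad4 to Smad2 lay between their SDs of 0.25 and 0.16. Tgfbr1 came last at 1.95 ± 0.26, a gap of 0.40 below Skil. Exon lengths are the union over annotated transcripts, so genes with long or rarely used exons rank lower on this scale than by their main transcript.

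Within-library differences between paired genes do not depend on the scaling between libraries, and 3 such pairs were compared by a two-sided exact permutation test over the 35 splits, which can give 0.0286 at the smallest. Smad3 less Smad2 was 0.15, -0.02 and -0.32 in 5G2del and -0.20, -0.50, -0.61 and -0.48 in WT, on the log2 scale. The balance lay toward Smad3 in 5G2del-A and 5G2del-B beyond every WT library, while 5G2del-C fell below WT-A. The group difference was 0.39 (exact permutation p = 0.0857, adjusted over the 3 pairs 0.257) and stayed positive with each library left out (0.28 to 0.52). Tgfbr2 less Tgfbr1, the receptor pair, was 0.90 ± 0.28 (SD, n = 3) in 5G2del and 0.92 ± 0.18 (SD, n = 4) in WT (exact permutation p = 0.914, adjusted 0.914). Skil less Ski was -0.14 ± 0.30 in 5G2del and 0.24 ± 0.60 in WT (exact permutation p = 0.400, adjusted 0.600), and ran from -0.53 in WT-B to 0.86 in WT-C. None of the 3 pairs passed, and these differences are not per length.

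**Figure D3:**
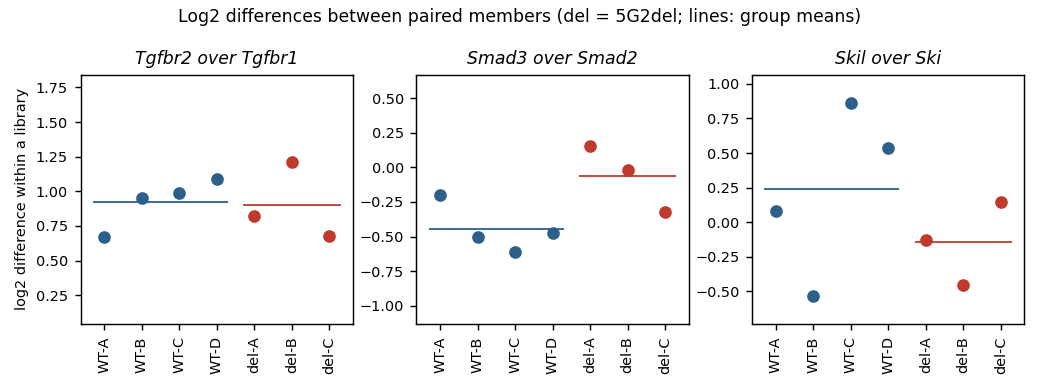
Log2 difference between paired genes within each library (y axis) for WT (blue) and 5G2del (red) libraries (x axis), with a line at each group mean. For Smad3 over Smad2 the group means are -0.06 in 5G2del and -0.45 in WT, with 5G2del-C and WT-A overlapping.

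The rest of the pathway was read from 9 lists that hold 85 genes with the 10, of which 72 were in the table. In limma-trend 0 of the 72 passed the adjusted threshold, and the means of 36 were higher and of 36 lower in 5G2del (median log2 fold change 0.0025). Of the 62 that are not among the 10, 6 had an unadjusted p under 0.05, 4 higher and 2 lower (9.68%, beside 3.91% of all genes), and 8 had groups without overlap (12.9%, beside 5.70%). The count of 6, which is also that over all 72, depended on the libraries. Over the 72 it came to 1 without 5G2del-B, to 3 without 5G2del-A, 5G2del-C or WT-C, to 4 without WT-A and to 5 without WT-B or WT-D. The share of all genes at that limit is not given for these smaller fits. Whether the count of all genes moved in the same way therefore cannot be told.

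Among ligand storage and activation genes (9 of 14 measured, 6 higher and 3 lower), Thbs1, which encodes thrombospondin, a known activator of latent TGF-beta, split the 5G2del libraries. Its level was 1.67, 0.56 and 5.41 log2 CPM in 5G2del and 4.46, 4.37, 4.79 and 4.52 in WT. Thus 5G2del-A and 5G2del-B lay far below a tight WT group, with 133 and 63 expected counts against 857 to 1229, while 5G2del-C lay above it. The log2 fold change was -1.99 ± 0.85 (limma-trend adjusted p = 0.989). Without 5G2del-C it was -3.42 (limma adjusted p = 0.0384), the one gene of the table to pass in that setting, and without 5G2del-B it was -0.99. Leaving out 5G2del-C removes the 5G2del library that went the other way, so the p of that setting is no support for a difference. Markers of platelets, which are rich in thrombospondin, summed to 27.8, 44.1 and 37.0 CPM in 5G2del (6 of 7 measured) and 23.0 to 39.6 CPM in WT. Within this list Treml1 and Itga2b had higher means in 5G2del at an unadjusted p under 0.05 in limma-trend (log2 fold changes 5.71 and 0.93). Gp1ba and Ppbp had lower means. Treml1 was low, at -0.22 to 1.04 log2 CPM in 5G2del and -6.60 to -3.80 in WT. Itgav, an integrin chain that takes part in freeing the ligand, was at 4.74 to 4.87 log2 CPM in 5G2del and 4.07 to 4.59 in WT, without overlap (0.43 ± 0.19, limma unadjusted p = 0.0484). The listed integrin chains Itgb6 and Itgb8 were not in the table, and release of the ligand was not tested. Nrros, a carrier of latent ligand on blood cells, was at 6.67 to 7.16 and 6.61 to 6.95 log2 CPM.

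Tgfbr3, the accessory receptor betaglycan, was the pathway gene with the lowest unadjusted p. It was at 3.84, 4.38 and 3.66 log2 CPM in 5G2del and 3.26, 3.40, 1.66 and 2.92 in WT. Every 5G2del library lay above every WT library, with WT-C far below the rest. The log2 fold change was 1.15 ± 0.41 (limma unadjusted p = 0.0164, adjusted p = 0.989), and 0.77 without WT-C. Tgfbr3 lies on chromosome 5 between 107106570 and 107289629. Of the BMP and activin receptors (6 of 8 measured, 3 higher and 3 lower), Acvr1 was at 2.92 to 3.20 log2 CPM in 5G2del and 1.57 to 2.55 in WT (0.79 ± 0.34, limma unadjusted p = 0.0382). Bmpr1a was at 0.17 and -0.01 in 5G2del-A and 5G2del-B, at 0 counts in 5G2del-C, and at 0.37 to 0.58 in WT, from 42 to 83 counts where it was seen. Without 5G2del-C its log2 fold change was -0.42.

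Of the SMAD partners and co-repressors (10 of 11 measured, 3 higher and 7 lower), Tgif2, a homeobox co-repressor of SMADs, was at 3.21, 3.61 and 3.93 log2 CPM in 5G2del and 3.15, 0.75, 2.70 and 2.78 in WT. The groups did not overlap, and the difference of 1.24 ± 0.52 (limma unadjusted p = 0.0351) was 0.70 without WT-B. Sptbn1, a spectrin that serves as a SMAD adaptor, was at 8.24 to 8.48 in 5G2del and 8.51 to 8.83 in WT (-0.25 ± 0.15).

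Ubiquitin and phosphatase control genes were all measured (16 of 16, 9 higher and 7 lower). Wwp1, a ubiquitin ligase that acts with SMAD7 on the type I receptor, was at 4.55, 4.66 and 4.75 log2 CPM in 5G2del and 5.10, 5.02, 5.06 and 5.00 in WT. The groups were separated by more than their own ranges, and the log2 fold change of -0.39 ± 0.17 (limma unadjusted p = 0.0373, adjusted p = 0.989) ran from -0.44 to -0.34 with 1 library left out. Usp9x, a deubiquitinase of SMAD4, was at 7.34 to 7.50 in 5G2del and 7.53 to 8.02 in WT (-0.28 ± 0.16, and -0.19 without WT-A). Smurf1, a ligase of distal chromosome 5 (144876495 to 144965847), was at 3.62 to 4.27 log2 CPM in 5G2del and 3.21 to 4.38 in WT. Its difference of 0.01 ± 0.31 turned sign under quantile or median scaling and without 5G2del-C, WT-A or WT-D. All 5 genes of the kinase branch, Map3k7, Tab1, Tab2, Tab3 and Traf6, had lower means in 5G2del (median -0.17), and 0 of them had an unadjusted p under 0.05 in limma-trend. Over all genes 53.3% had higher means, with a median of 0.03. Map3k7 and Tab2 differed little, at -0.04 and -0.06, and 5 genes are too few to set the branch apart.

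**Figure D4:**
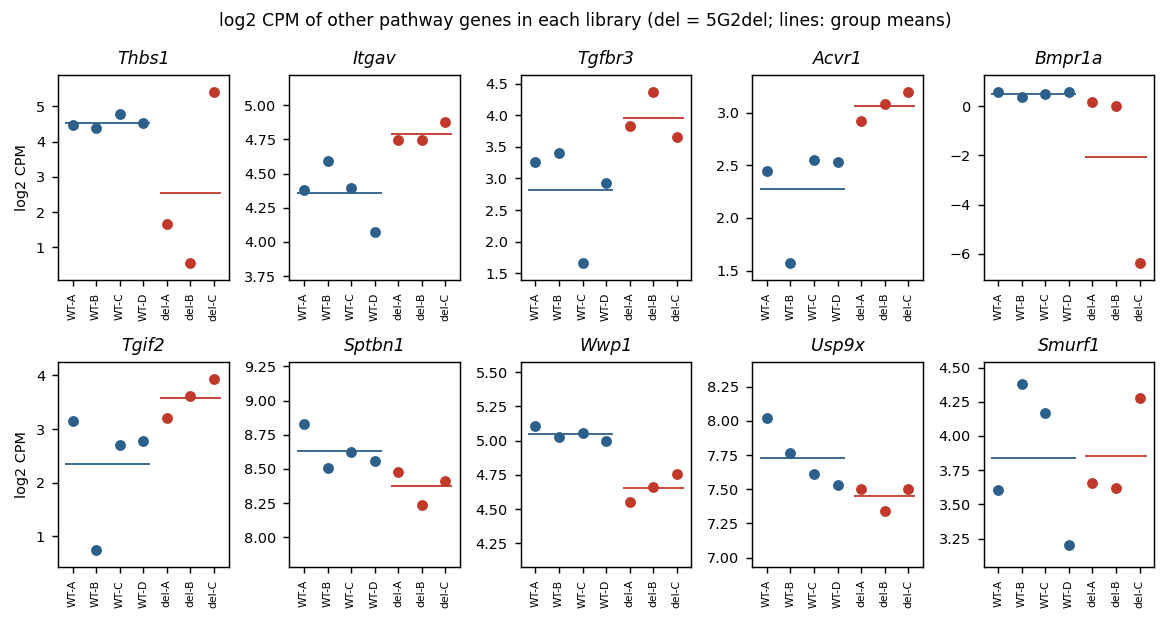
Log2 CPM (y axis, range differs between panels) of 10 further pathway genes in each WT (blue) and 5G2del (red) library (x axis), with a line at each group mean. Wwp1 separates the groups (4.55 to 4.75 against 5.00 to 5.10), while for Thbs1 5G2del-C is at 5.41 and the other 5G2del libraries at 1.67 and 0.56.

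Genes listed here as induced by TGF-beta, a list that also holds Ski, were divided between higher and lower. Of 20 listed, 17 were measured, 8 higher and 9 lower in 5G2del (median log2 fold change -0.01), and 0 had an unadjusted p under 0.05 or groups without overlap. Tgfbi, a secreted matrix protein, was at 4.59 to 4.95 log2 CPM in 5G2del and 3.64 to 4.72 in WT (0.53 ± 0.26, limma unadjusted p = 0.0659). The 5 genes known to be repressed by TGF-beta, Myc, Id1, Id2, Id3 and Cdc25a, had 4 higher and 1 lower, with a median of 0.10 and again 0 at an unadjusted p under 0.05 in limma-trend.

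The genes listed as induced differed between libraries within both groups. Among the 13 with a mean log2 CPM over 2, WT-C had the highest value of the 7 libraries for 8 genes, among them Smad7, the cell cycle inhibitor Cdkn1a and the AP-1 gene Junb, and the lowest for 3, Ski, Tgfbi and Cdkn1c. In 5G2del-B 2 of the 13 genes lay above their mean over libraries, in WT-B 3 and in WT-A 4, against 9 to 11 in 5G2del-A, 5G2del-C, WT-C and WT-D. The median deviation was -0.41 log2 CPM in 5G2del-B, -0.28 in WT-B, -0.09 in WT-A and 0.45 in WT-C. The low Smad7 and Skil values of 5G2del-B thus stood beside low Junb (-0.69 from its mean), Cdkn1a (-0.57) and Bhlhe40 (-1.14) in the same library. All these deviations depend on the scaling of each library. They are not set beside those of all genes, so they are not particular to TGF-beta induced genes on this evidence.

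**Figure D5:**
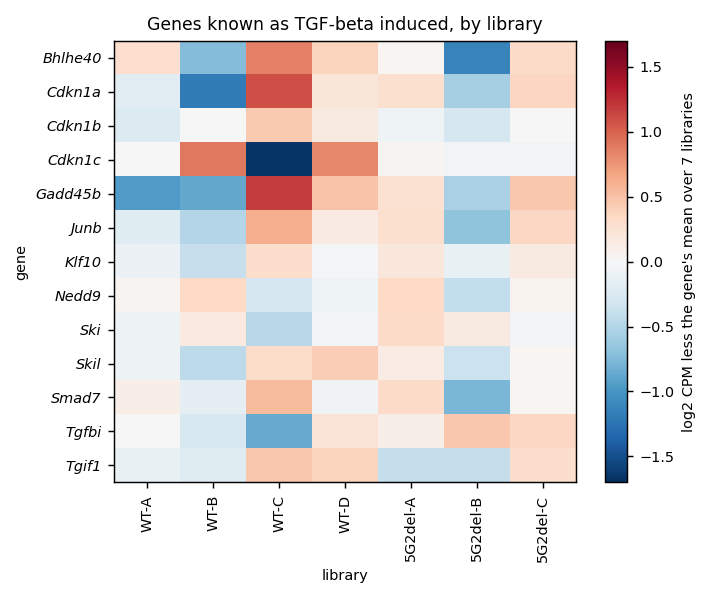
Log2 CPM less the gene's mean over the 7 libraries (colour) for 13 genes listed as TGF-beta induced, Ski among them (rows), in each library (columns). WT-C is highest for 8 genes, and 5G2del-B lies above the mean for 2. Values depend on the scaling of each library.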

How the data were processed

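RNA from 7 samples (4 WT, 3 5G2del) was sequenced after amplification with a whole-transcriptome kit, per the labels' protocols. The authors deposited 1 table of log2 CPM per library for 16760 genes, with their group means, log2 fold changes, moderated t scores, log-odds scores, p-values and q-values. STAR 2.7.9a, RSEM 1.3.0 and limma 3.50.3 are named in the submitters' processing notes, with the builds mm10 and GRCh38. The sources used here do not give the low-gene filter or the method of scaling. Library sizes implied by the deposited values lay below the summed expected counts in 5G2del-C (41220903 against 47664360) and WT-C (34865420 against 42038974). In each of the other libraries the implied size lay above the sum, as in WT-B (41481443 against 37930174). A scaling factor per library was thus applied, and differences between libraries depend on it. RSEM divides reads of related genes between them, and no source states the strand.

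From the deposited log2 CPM, RSEM's expected counts were recovered by removing an offset of 0.5 count; a voom fit on these counts gave back the authors' log2 fold changes to within 8.48e-14. Of the recovered expected counts, 69.8 to 73.2% per library were within 0.01 of a whole number, and no count model was used, since the deposited unit is log2 CPM. The comparison used limma 3.58.1 in R 4.3.3 (limma-trend, no covariate, all 7 libraries), with Benjamini-Hochberg adjustment over all genes. It was also run on simulated data with independent noise, where only the direction of added changes was required to be right. That run does not measure how well changes are called in these libraries. Gene positions and exon lengths came from GENCODE M21 (mm10), matched by identifier. Members, pathway lists, markers and tests were chosen with earlier results of these data known. Named pathway genes were those with an unadjusted p under 0.05 or without overlap of the groups, plus Smurf1, and a few listed genes are not reported here; genes given as values beside them, such as Nrros and Tgfbi, were chosen after their values were seen. Counts from amplified reads carry counting error and amplification error. Alternatives were no trend, robust moderation, voom, quantile and median scaling, an offset of 2 counts, a filter at a mean log2 CPM over 2, and each library left out.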

Additional observations from a re-analysis of the deposited data

Results flagged for a closer look

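Acvr1, an activin and BMP type I receptor gene, was at 1.57 log2 CPM in WT-B (123 expected counts), while the other WT libraries lay between 2.45 and 2.55. The gap to the nearest of the others exceeded Dixon's 95% critical value for 4 samples (0.829 of the range). Without WT-B the log2 fold change of Acvr1 was 0.56 in place of 0.79. Of 23 sets of WT values examined this way, 1 was marked, and chance marks about 1 in 20.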

How the results depend on the processing

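No paired analysis was possible because the table's columns carry no replicate number and can be tied to a group only. Over 15 other settings, 0 of the 10 members passed the adjusted threshold in any (lowest limma adjusted p 0.833), and 142 of 150 member values kept their direction. The 8 that turned belong to 4 genes, each with 1 library left out: Eng ranged from -0.019 to 0.12, Smad4 from -0.057 to 0.18, Smad7 from -0.48 to 0.070 and Skil from -0.29 to 0.026. With 1 library left out, members with an unadjusted p under 0.05 numbered 0 to 1 and genes past the adjusted threshold 0 to 1 (Thbs1, without 5G2del-C, the 5G2del library that went the other way). Without a trend 1 gene passed, Sfrp5. Pathway genes with an unadjusted p under 0.05 numbered 6 in limma-trend, 3 without a trend, 1 to 5 with 1 library left out, and 2 with 5G2del-A and WT-A left out together, a setting chosen after the data were seen, in which fewer libraries are fitted. The share of all genes at that limit is given for limma-trend with all libraries only. Smurf1 was at -0.024 with quantile and -0.0097 with median scaling and ranged from -0.20 to 0.19 with 1 library left out. The difference of Tgfbr2 over Tgfbr1 ranged from -0.18 to 0.094, that of Smad3 over Smad2 from 0.28 to 0.52, and that of Skil over Ski from -0.64 to -0.17; with 6 libraries the exact test could not reach 0.05. For the other changes the cause was not tested.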

Other observations

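The genes whose log2 CPM over the 7 libraries most resembled a member's were looked up among 10358 candidates (mean log2 CPM over 2) for the 3 members with the largest moderated t, as a description. Nearest to Tgfb1 were Racgap1, a regulator of cytokinesis (Pearson r = 0.983 over 7 libraries), and Edem1, which serves the disposal of misfolded glycoproteins (r = 0.981). Smad2 was matched most closely by Senp8, which encodes a protease of the ubiquitin-like protein NEDD8 (r = 0.972), and by Rnf145 (r = 0.971), and Ski by the glycolytic enzyme gene Eno1 (r = 0.972) and by Senp5 (r = 0.972). These are the highest of many correlations over the same 7 libraries, which also share depth and group, so values this high carry no test.

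The SMADs of the BMP branch were Smad1, at 3.97 to 4.50 log2 CPM in 5G2del and 4.07 to 4.76 in WT, and Smad5, at 6.41 to 6.59 and 6.24 to 6.68, and both overlapped between groups. Bmpr2, the BMP type II receptor gene, was at 6.71 to 6.99 log2 CPM in 5G2del and 6.97 to 7.23 in WT, with a log2 fold change of -0.22 ± 0.15.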
